A study of Mus musculus with 6 samples.

Results

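The natriuretic peptide system of the mouse heart was read from 8 genes: the peptide genes Nppa, Nppb and Nppc, the receptor genes Npr1, Npr2 and Npr3, and the protease genes Corin and Furin. The members were found by name among the non-control probes of the arrays, and all 8 of 8 genes were present, each with 1 probe, which makes 8 of 55681 probes. The study compared hearts of 3 sham mice with hearts of 3 mice suspended by the tail for 28 days, a procedure that unloads the hindlimbs and is used to simulate microgravity. All 6 animals were C57BL/6 males, the tissue was cardiac muscle, and sham mice shared the housing and feeding of the suspended mice but were not suspended. By the labels suspension started at 10 weeks, and their age field reads 11 weeks, while the study's methods put the mice at 2 months. No drug or transgene entered the arrayed groups, and the sources used here do not say which chambers of the heart were taken.

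Nppa encodes atrial natriuretic peptide, and Nppb encodes B-type natriuretic peptide. Heart muscle cells release both when the wall is stretched, and ventricular expression of both is a classical sign of haemodynamic load. The serine protease corin, on the surface of cardiomyocytes, cuts pro-ANP to its active form, and furin is a proprotein convertase that cuts the precursors of B-type and C-type peptide. Npr1 is the guanylyl cyclase receptor of the atrial and B-type peptides and Npr2 that of the C-type peptide encoded by Nppc. Both make cyclic GMP, whereas Npr3 has no cyclase domain and clears all 3 peptides from the circulation.

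Each value below rests on a 60-base DNA oligo printed on the array, and the oligos of the members that the results turn on are shown so that the measured stretch of each transcript can be seen. Coordinates are those of the deposited files on mm9. The files do not say which exon an oligo covers. The oligos of Nppb and Npr1 are printed whole and the others by their middle 30 bases, in lower case throughout, 5′ to 3′ on the strand of the gene.
Nppa, probe A_52_P580582, chr4:147376024-147376083, plus strand: tatcacgatcgatgttaaatgtagatgagt
Nppb, probe A_51_P426195, chr4:147360489-147360548, plus strand: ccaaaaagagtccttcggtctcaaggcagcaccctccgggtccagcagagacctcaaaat
Npr1, probe A_51_P182693, chr3:90259171-90259664, minus strand: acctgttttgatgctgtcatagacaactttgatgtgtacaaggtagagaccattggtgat
Npr3, probe A_51_P247184, chr15:11769937-11769996, minus strand: ctggtagaagagtccaagctgcaccagcta
Corin, probe A_51_P135268, chr5:72692288-72692347, minus strand: tagggggcacatttcagaactgatcttgga
Furin, probe A_55_P2064557, chr7:87534082-87534141, minus strand: atgttagaggttttaaagtgattaaacgtg
The Npr1 oligo spans 494 bases of the genome for its 60 bases of sequence, so its letters lie in more than 1 genomic block. The oligos of Nppa and Nppb start 15535 bases apart on the same strand of chromosome 4.

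Nppa and Nppb are neighbours driven by cardiac transcription factors, and the 250 bases before each start site are shown because the genes of those factors are described further on. The sequences come from RefSeq on GRCm38.p6. Capitals mark the letters GATA, the core bound by GATA factors, and AAGTG, the core of the NKX2-5 element, both searched on both strands, so that TATC is a GATA match on the opposite strand.
Nppa, chr4:148000472-148000721, plus strand: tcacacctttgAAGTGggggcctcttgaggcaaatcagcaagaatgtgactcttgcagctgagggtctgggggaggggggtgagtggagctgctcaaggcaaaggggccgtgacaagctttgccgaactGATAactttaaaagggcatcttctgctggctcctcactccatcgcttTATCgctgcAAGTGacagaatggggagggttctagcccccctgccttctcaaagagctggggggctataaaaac
Nppb, chr4:147985650-147985899, plus strand: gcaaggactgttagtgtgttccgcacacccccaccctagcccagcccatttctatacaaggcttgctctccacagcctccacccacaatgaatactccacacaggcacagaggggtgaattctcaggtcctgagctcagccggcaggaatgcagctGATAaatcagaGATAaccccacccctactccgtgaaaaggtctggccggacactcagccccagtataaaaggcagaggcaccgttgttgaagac
The Nppa window held 2 GATA matches, which begin 121 and 74 bases before the start site, and 2 AAGTG matches, which begin 239 and 65 bases before it. The Nppb window held 2 GATA matches, at 94 and 83 bases before the start site, and no AAGTG. No match overlapped another. GATA letters occur in 53.6% and AAGTG letters in 40.7% of 32851 mouse promoter windows of this length, so their presence sets neither gene apart. One of the start sites of Furin had 1 GATA and 4 AAGTG in its window, and the windows of Npr1, Npr2, Npr3, Nppc and Corin held neither motif.

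The 6 arrays shared 1 slide and 1 scan. The processed intensity of each spot was divided by the 75th percentile of its array, between 300 and 375 intensity units, and is given as a log2 level on that scale, where 0 equals the percentile. Between 50.9% and 53.4% of probes were well above background on an array, which is the scanner's own detection flag. The groups were compared with limma and Benjamini-Hochberg adjustment over 28030 tested probes, with an adjusted p of 0.05 as threshold. The labels number the mice but tie no mouse of one group to one of the other. In bulk tissue, fewer cells of a type and less RNA per cell cannot be told apart.

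Of the 8 members, 7 were tested, and 3 had a higher level after tail-suspension: Npr3, Corin and Furin. None was lower by limma at this threshold, and none was lower at an unadjusted p under 0.05 or by the methods' t-test. Over all tested probes, 20.2% passed in either direction, 10.6% were higher and 9.6% lower. The 3 tail-suspension arrays lay outside the range of the 3 sham arrays for the same 3 members, and over all tested probes this was so for 43.9%. The peptide genes Nppa and Nppb had higher means after tail-suspension, but the arrays of both groups overlapped and neither gene passed the threshold. The plot of levels by array shows these patterns side by side.

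**Figure D1:**
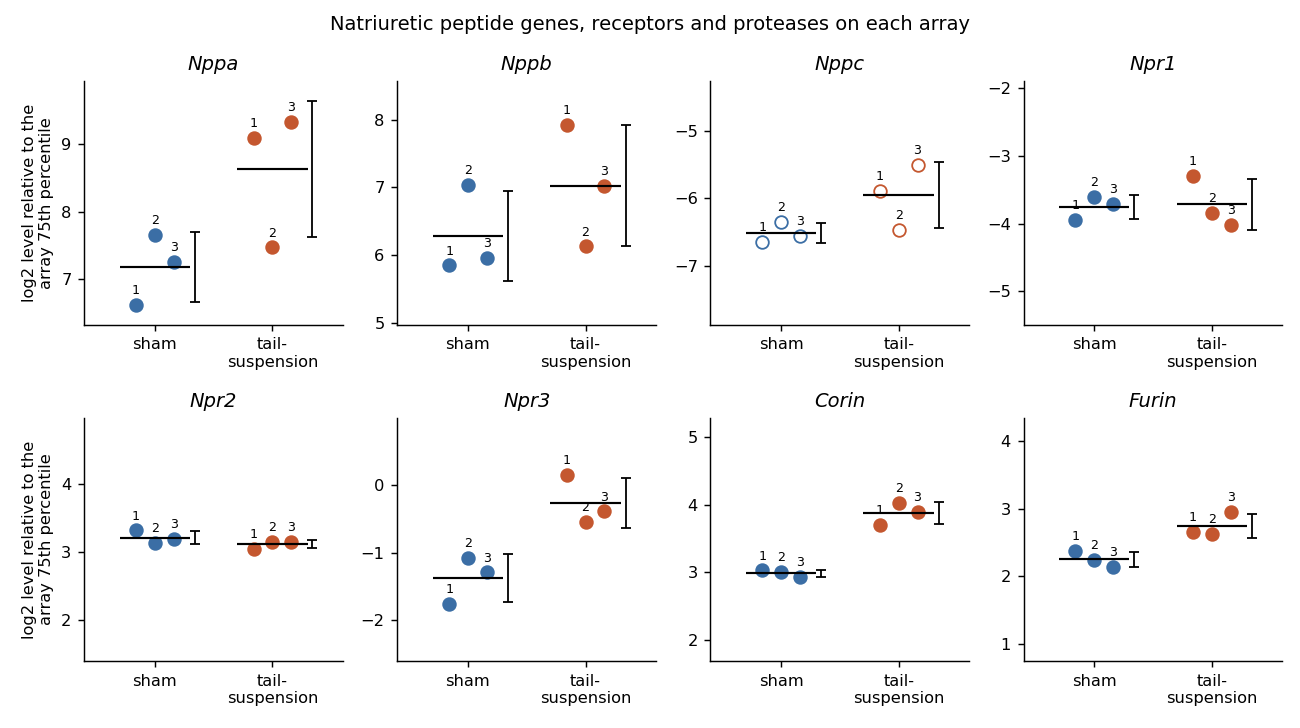
Log2 level of each member relative to the 75th percentile of its array (y axis) in sham and tail-suspended mouse hearts (x axis). Each point is 1 array with its replicate number, open where the probe was not well above background, the line is the mean and the bar 1 SD (n = 3). Npr3, Corin and Furin separated by group, while 1 tail-suspension array of Nppa, at 7.47, lay among the sham arrays.

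Nppa was bright on every array. Its processed intensity was 31430, 63830 and 45950 in sham hearts 1, 2 and 3, and 184700, 66440 and 238200 in tail-suspended hearts 1, 2 and 3. Tail-suspended hearts 1 and 3 were far above every sham heart, whereas tail-suspended heart 2 lay between sham hearts 3 and 2 once each array was scaled, at log2 levels of 7.47 against 7.26 and 7.65. The sham mean was 7.18 ± 0.52 (SD, n = 3) and that of tail-suspended hearts 8.63 ± 1.01 (SD, n = 3). The difference of 1.45 on the log2 scale (standard error 0.51, 95% confidence interval 0.23 to 2.67), or 2.73-fold, did not pass the adjusted threshold (adjusted p = 0.0889 by limma, unadjusted p = 0.0267). The exact permutation test gave a two-sided p of 0.2, where 3 arrays against 3 allow no p under 0.1. Leaving out tail-suspended heart 2 raised the difference to 2.03 and took it past the threshold (adjusted p = 0.0129 by limma, beside a range of 0.0129 to 0.225 over 18 alternative settings).

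The Nppa probe was printed at 10 places on each array, which shows the error between spots of 1 labelled RNA but not that of extraction, labelling or hybridisation. Within an array the spots had a coefficient of variation between 2.51% and 5.26%, and 1 spot, on tail-suspended heart 1, carried an outlier flag and was left out. The kept spots ran from 29890 to 32810 in sham heart 1 and from 221600 to 247500 in tail-suspended heart 3. None of the spots was saturated. The SD between spots of an array was at most 0.078 on the log2 scale, against a pooled SD between hearts of 0.80.

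**Figure D2:**
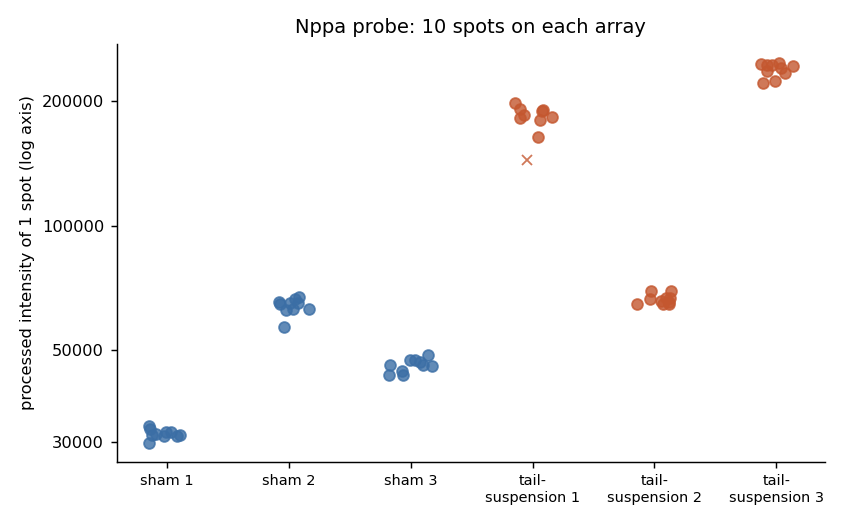
Processed intensity of the 10 Nppa spots on each array (y axis, log scale) for the 3 sham and 3 tail-suspended mouse hearts (x axis). Each circle is 1 spot and the cross is the spot with an outlier flag. Spots of an array stay close together, and the spots of tail-suspended heart 2, from 64630 to 69740, overlap those of sham heart 2, from 56870 to 67190.

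Nppb followed a similar order. Its processed intensity was 18440, 41750 and 18610 in sham hearts 1, 2 and 3, and 81870, 26210 and 48370 in tail-suspended hearts 1, 2 and 3. Only tail-suspended heart 1 exceeded the brightest sham heart on the scaled level, at 7.92 against 7.04. The sham mean was 6.28 ± 0.66 (SD, n = 3) and that of tail-suspended hearts 7.02 ± 0.90 (SD, n = 3), a difference of 0.74 with a 95% confidence interval from -0.46 to 1.94 (adjusted p = 0.322 by limma). The exact permutation p was 0.3. For both peptide genes sham heart 1 was the lowest and sham heart 2 the highest of the sham group, and tail-suspended heart 2 was the lowest of its group. The pooled SD of Nppb was 0.79, and 99.2% of tested probes had a smaller SD than Nppa, and likewise than Nppb, beside a median SD of 0.16.

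Whether the neighbouring peptide genes changed unequally was tested as the difference of their log2 levels on each array. This difference averaged 0.90 ± 0.36 (SD, n = 3) over sham hearts and 1.61 ± 0.61 (SD, n = 3) over tail-suspended hearts, and the groups overlapped. The gap between the changes of Nppa and Nppb was 0.71 (exact permutation p = 0.2, adjusted p = 0.3 over 3 pairs of members). Nppc, the gene of C-type peptide, was not well above background on any of the 6 arrays, with processed intensities from 3.19 to 8.22. It was not tested, and no fold is given for it.

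Among the receptors, only Npr3 passed the threshold. The level of Npr3, the clearance receptor, was -1.76, -1.07 and -1.29 in sham hearts 1, 2 and 3, and 0.15, -0.55 and -0.39 in tail-suspended hearts 1, 2 and 3. Every tail-suspended heart was above every sham heart, and the closest values, -0.55 and -1.07, belonged to the second heart of each group. The level was 1.10 higher (standard error 0.24, 95% confidence interval 0.54 to 1.67), a 2.15-fold difference, with an adjusted p of 0.0249 by limma. The exact permutation p was 0.1, the smallest that this design allows. With 1 array left out, the difference lay between 0.90 and 1.25 and the adjusted p between 0.0277 and 0.0655, and it passed in 1 of 6 such fits, the one without tail-suspension replicate 2. It was lost without sham replicate 1, 2 or 3 and without tail-suspension replicate 1 or 3.

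Npr1, the cyclase receptor of the cardiac peptides, was close to the detection limit of the arrays. Its levels were -3.95, -3.61 and -3.71 in sham hearts 1, 2 and 3, and -3.29, -3.84 and -4.02 in tail-suspended hearts 1, 2 and 3, where the lowest level well above background was between -4.59 and -4.27. The groups overlapped fully, with tail-suspended hearts at both ends of the order. The difference was 0.037 (95% confidence interval -0.45 to 0.52, adjusted p = 0.909 by limma), and it turned below 0 under normexp, quantile normalization and the authors' values. Npr2, the C-type peptide receptor, was the steadiest member, with levels from 3.13 to 3.32 in sham and from 3.05 to 3.15 in tail-suspension. Its difference of -0.10 had a 95% confidence interval from -0.31 to 0.12 (adjusted p = 0.467 by limma).

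The clearance receptor and the cyclase receptor were also set against each other on each array. The log2 level of Npr1 minus that of Npr3 was -2.19, -2.54 and -2.42 in sham hearts 1, 2 and 3, and -3.43, -3.29 and -3.63 in tail-suspended hearts 1, 2 and 3. These values did not overlap, and the change was -1.07 (exact permutation p = 0.1, adjusted p = 0.3 over 3 pairs). The change of Npr1 minus Npr2 was 0.13 (exact permutation p = 0.7, adjusted p = 0.7 over 3 pairs).

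Corin had the smallest adjusted p of the members. Its processed intensity was 2606, 2559 and 2286 in sham hearts 1, 2 and 3, and 4395, 6125 and 5569 in tail-suspended hearts 1, 2 and 3. The sham hearts were nearly level with each other, and the lowest tail-suspended heart was well above all of them. The level rose from 2.99 ± 0.05 (SD, n = 3) to 3.88 ± 0.17 (SD, n = 3), a difference of 0.89 (standard error 0.11, 95% confidence interval 0.63 to 1.14) or 1.85-fold, with an adjusted p of 0.00518 by limma. It passed in all 6 fits with 1 array left out and in 17 of 18 alternative settings. The exception was the fit blocked on slide row, where the difference was 0.71 (adjusted p = 0.0669 by limma).

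Furin rose by less. Its processed intensity was 1654, 1497 and 1324 in sham hearts 1, 2 and 3, and 2124, 2317 and 2883 in tail-suspended hearts 1, 2 and 3. The groups did not overlap, although the gap between sham heart 1 and tail-suspended heart 2, at levels of 2.37 and 2.63, was narrow. The difference was 0.49 (standard error 0.12, 95% confidence interval 0.20 to 0.78) or 1.41-fold, with an adjusted p of 0.0358 by limma. With 1 array left out the difference lay between 0.39 and 0.55 and passed in 1 of 6 fits. It was lost without sham replicate 1, 2 or 3 and without tail-suspension replicate 1 or 3, with adjusted p-values up to 0.114.

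The sham hearts and tail-suspended heart 1 shared 1 row of the slide, and tail-suspended hearts 2 and 3 lay in the other row. Within the shared row, tail-suspended heart 1 was above the sham mean by 1.92 for Nppa, 1.64 for Nppb, 1.52 for Npr3, 0.71 for Corin, 0.40 for Furin and 0.47 for Npr1, and Npr2 was at -0.16. With the row as a block none of the members passed, and this estimate rests on 1 tail-suspended heart.

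**Figure D3:**
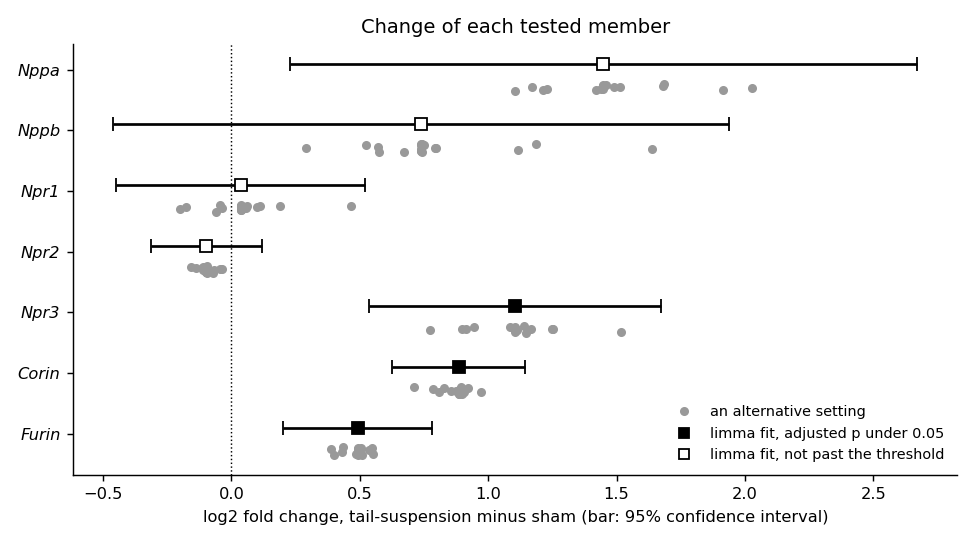
Log2 fold change of each tested member, tail-suspension minus sham (x axis). Squares are the limma estimates with their 95% confidence intervals, filled where the adjusted p was under 0.05, and grey points are the 18 alternative settings. Every setting left Nppa, Nppb, Npr3, Corin and Furin above 0, and Npr1 lay on both sides of 0.

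Of 7 other tested genes for enzymes of peptide processing and degradation, none rose and 1 fell by the brightest probe. Their median log2 fold change was -0.035, beside -0.022 over 15180 tested genes. Of all those tested genes 21.4% passed, 10.4% higher and 11% lower. The one that fell was Pcsk6, the proprotein convertase known to activate corin, at -0.57 (standard error 0.10, adjusted p = 0.0136 by limma). Its levels were 3.27, 3.02 and 3.05 in sham hearts 1, 2 and 3, and 2.54, 2.53 and 2.58 in tail-suspended hearts 1, 2 and 3, without overlap. Mme, which encodes the peptide-degrading enzyme neprilysin, had a difference of -0.39 at its brighter probe (adjusted p = 0.0737 by limma), whereas its other probe passed at -0.64 (adjusted p = 0.015 by limma).

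Downstream of the receptors, 17 genes of cyclic GMP production and action were tested, of which 2 rose and 2 fell, with a median of 0.22. Pde5a, a phosphodiesterase that breaks down cyclic GMP, rose by 0.80 with a standard error of 0.12 (adjusted p = 0.00821 by limma). Rgs2, a brake on G protein signalling that cyclic GMP-dependent kinase activates, rose by 1.14 at its brighter probe (adjusted p = 0.0496 by limma), whereas its other probe gave 0.82 and did not pass (adjusted p = 0.0754 by limma). Its relative Rgs4 fell by 1.00 (adjusted p = 0.0264 by limma). Vasp, a cytoskeletal substrate of that kinase, fell by 0.43 (adjusted p = 0.0352 by limma). Pde3a, another phosphodiesterase gene, had 0.67 at its brightest probe (adjusted p = 0.0543 by limma), and 1 of its other probes passed at 0.55 (adjusted p = 0.0365 by limma). The kinase gene Prkg1 itself had a difference of 0.22 (adjusted p = 0.168 by limma).

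Of 17 genes for transcription factors that act on Nppa or Nppb, 4 rose and 2 fell, and the median was -0.016. The GATA factors, whose core letters are marked in both promoters above, went in opposite directions. Gata6 rose by 0.78 (adjusted p = 0.0183 by limma), with levels of 3.05, 3.21 and 3.58 in sham hearts 1, 2 and 3 and of 3.93, 4.11 and 4.12 in tail-suspended hearts 1, 2 and 3. Gata4 fell by 0.53 (adjusted p = 0.0368 by limma). Nkx2-5 had a difference of 0.047 (adjusted p = 0.772 by limma). Tbx5, a T-box activator of Nppa, rose by 0.56, as did Hey1, a Notch-dependent repressor, by 0.56 and Klf13, a Kruppel-like factor, by 0.50. Rest, a repressor of the fetal genes, fell by 0.33 at its brighter probe (adjusted p = 0.0467 by limma), whereas its other probe gave 0.21 (adjusted p = 0.303 by limma).

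Of 12 tested genes of ventricular load and the fetal program, 3 rose and none fell, and the median was 0.049. Myh7, the slow fetal myosin heavy chain that often moves with Nppa, rose by 2.16 with a standard error of 0.41 (adjusted p = 0.0176 by limma). Its 3 tail-suspended hearts, at 9.97, 10.05 and 10.03, were almost level, unlike those of Nppa and Nppb. Ctgf, a matrix protein gene, rose by 2.55 and Ankrd1, a stretch-responsive gene of the sarcomere, by 0.96. Acta1, skeletal actin, which also belongs to the fetal program, had a difference of -0.90 (adjusted p = 0.243 by limma). Tnc was not well above background on any array. Within the sham group Myh7 and Acta1 had sham heart 1 lowest and sham heart 2 highest, as had Nppa and Nppb. Ankrd1, Npr1 and Npr3 had them so too, so this order does not set the fetal genes apart.

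**Figure D4:**
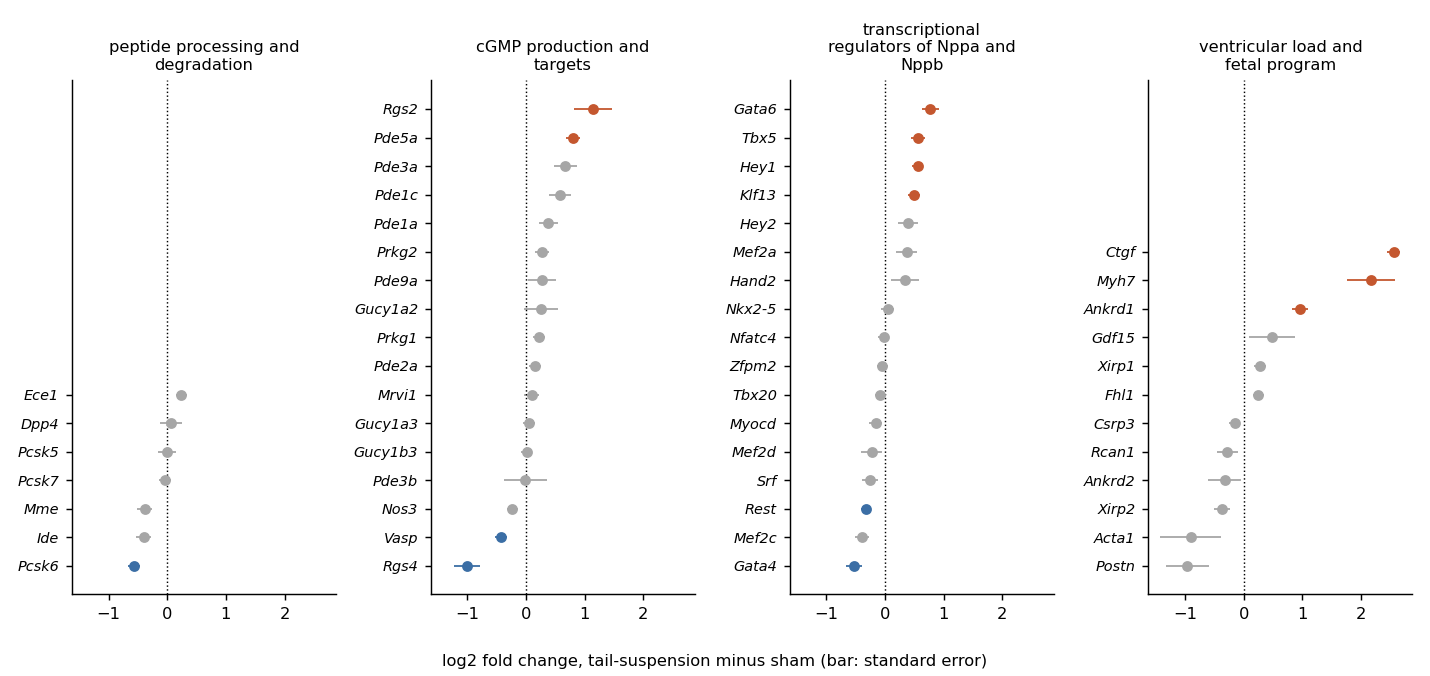
Log2 fold change, tail-suspension minus sham (x axis), of the tested genes in 4 lists around the natriuretic peptides. Bars are standard errors, and colour marks genes past the adjusted threshold (orange higher, blue lower, grey not past). Over the 4 lists 9 of 53 genes were higher and 5 lower, beside 10.4% higher and 11% lower over all tested genes.

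The genes whose levels over the 6 arrays were most like those of Nppa, by the root-mean-square difference of centred log2 levels among 15165 other genes, were Tuba3b, an alpha-tubulin gene, at 0.25, Tnni1, the slow and fetal troponin I, at 0.27, and Lman1l at 0.29. For Nppb they were the T cell adaptor gene Lat, the sphingomyelinase gene Smpd3 and the thrombospondin gene Thbs4, at 0.30, 0.31 and 0.32. For Npr3 they were Ftcd, an enzyme of histidine breakdown, Zap70, a T cell kinase, and Figf, a vascular growth factor, at 0.12, 0.13 and 0.15. Nppa and Nppb differed from each other by 0.54, and among the members set against it Npr3 was nearest to Corin, at 0.39, followed by Nppb at 0.45, Furin at 0.47, Nppa at 0.53, Npr1 at 0.55 and Npr2 at 0.70. Some of these genes came close to the detection limit. In sham heart 1, where the lowest level well above background was -4.47, Lat was at -4.64, Tnni1 at -4.26 and Zap70 at -4.05. Lat was well above background on 5 of the 6 arrays. These likenesses are descriptions over 6 arrays that share the same groups.

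**Figure D5:**
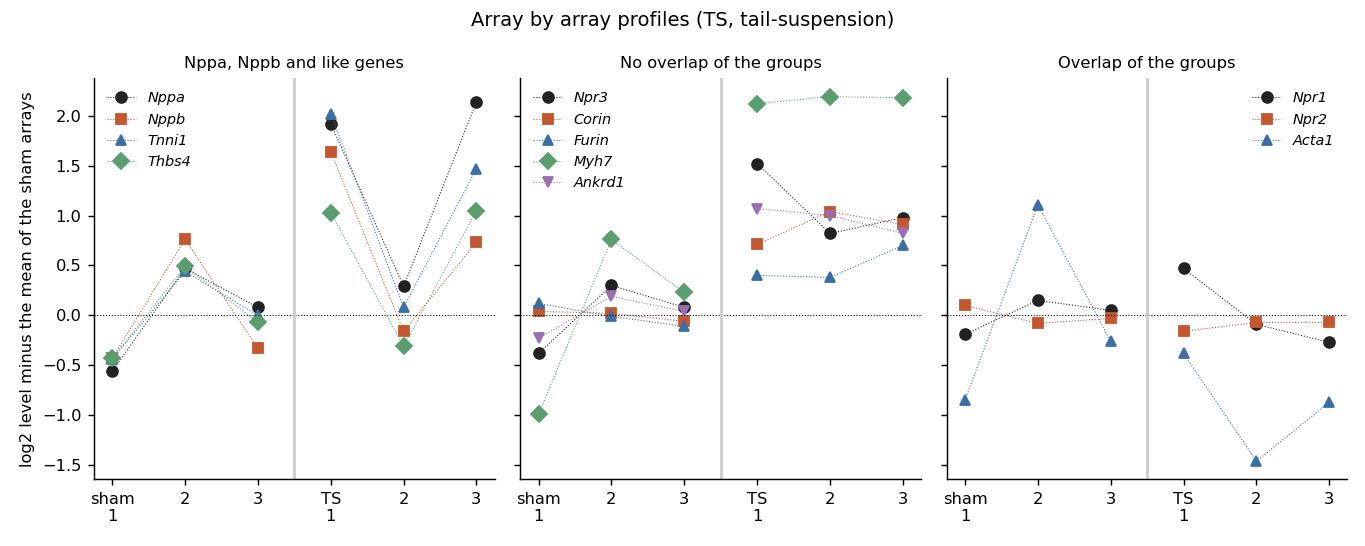
Log2 level minus the mean of the sham arrays (y axis) on each of the 6 arrays (x axis; TS, tail-suspension). Dotted lines join the arrays of a group only to guide the eye, since replicates have no order. Tail-suspended heart 2 sat at 0.29 for Nppa and -0.16 for Nppb, while Myh7 stood above 2 on all tail-suspension arrays.

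Cell type markers were read beside these results, because Nppa is far more active in atria than in ventricles. The counts stand beside 10.4% higher and 11% lower over 15180 tested genes. Of 11 atrial markers 8 were tested, of which by the brightest probe none rose and 1 fell, Nr2f1 by 0.81. Kcna5, an atrial potassium channel gene, had 0.72 at its brightest probe (adjusted p = 0.071 by limma), whereas the dimmer probe passed as higher at 0.80 (adjusted p = 0.0465 by limma). Of the 8 differences 5 were positive, with a median of 0.14. Dkk3 had 0.74 and did not pass (adjusted p = 0.17 by limma). Its levels were -1.6, -0.99 and -1.52 in sham hearts 1, 2 and 3. In tail-suspended hearts 1, 2 and 3 they were -0.35, -1.41 and -0.11, lowest in heart 2 and highest in heart 3 as for Nppa. Myl4, the brightest tested atrial marker in sham, had -0.63 and did not pass (adjusted p = 0.216 by limma). Its levels were 1.11, 1.63 and 1.93 in sham hearts 1, 2 and 3, and 1.55, 0.33 and 0.89 in tail-suspended hearts 1, 2 and 3. Kcnj3 had -0.20 at its brighter probe and -0.42 at the other (adjusted p = 0.268 and 0.0581 by limma). The summed level of the atrial markers, which leans on the brighter ones, lay between 10.8 and 13.1 in sham. In tail-suspension it lay between 10.3 and 12.2 relative to the 75th percentile. The defining atrial gene Bmp10 was not well above background on any array, and Myl7 and Sln were so on 2 arrays each, sham heart 3 and tail-suspended heart 1. Nppa was highest in tail-suspended heart 3, where neither Myl7 nor Sln was well above background. Nppb was highest in tail-suspended heart 1, where both were, Myl7 at -3.76 and Sln at -2.97. In sham heart 3 both were brighter, at -3.16 and -1.87. Nppb was at 5.96 there, close to its lowest array, sham heart 1 at 5.85. The part of atrial tissue in these values was not tested. Ventricular markers had 1 of 4 lower, Irx4, with sums of 1790 to 1930 in sham and 1700 to 1730 in tail-suspension, and 1 of 7 general cardiomyocyte markers was lower, Actc1, with sums of 3080 to 3390 and 2860 to 2940.

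Corin, a gene of cardiomyocytes, rose, while the summed cardiomyocyte markers were lower in each tail-suspended heart than in any sham heart. Npr3 is expressed by endocardial and vascular cells, and of 8 endothelial markers 4 were lower (Kdr, Emcn, Tie1 and Egfl7) and none higher, with sums of 163 to 173 in sham and 127 to 146 in tail-suspension. A second probe of Kdr gave -0.25 and did not pass (adjusted p = 0.0745 by limma). Fibroblast markers had 1 of 8 lower, Col3a1, with sums of 282 to 298 and 279 to 352. The fibroblast sum leans on Dcn, the brightest of them, which had 0.34 and did not pass (adjusted p = 0.0582 by limma). Of the 8 differences 2 were positive, and the median was -0.41. Smooth muscle markers had 1 of 5 lower, Smtn, with sums of 118 to 148 and 98.1 to 138. The smooth muscle sum leans on Smtn, the brightest of them. Of the 5 differences 4 were positive, none of which passed, and the median was 0.36. Of 5 adipocyte markers 1 was tested, Cfd, which did not pass and was well above background on 2 of 3 sham arrays and on all 3 tail-suspension arrays. The summed adipocyte level was 0.0674 to 0.387 in sham and 0.249 to 2.43 in tail-suspension, where it leans on Cfd. It was highest in tail-suspended heart 1, where Npr3, which adipocytes also express, was highest too. The highest sham sum was that of sham heart 1, where Npr3 was the lowest of the 6 arrays, at -1.76. Lep was not well above background on any array. Leucocyte markers had 2 of 5 higher, S100a8 by 4.80 and Ptprc by 0.47, and 1 lower, Cd79a by 0.87. Their sums were 2.06 to 2.46 in sham and 3.62 to 12 in tail-suspension. The latter lean on S100a8, the brightest of them there, at 3.32, 0.55 and 1.76 in tail-suspended hearts 1, 2 and 3. Red cell markers had 1 of 4 lower, Hba-a1, with sums of 430 to 696 and 107 to 345. None of 3 lung markers was tested, with sums of 0.0585 to 0.0801 and 0.0599 to 0.0661. Beside these counts, 10.4% of all tested genes were higher and 11% lower. The part of these cell types in the members' values was not tested.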

How the data were processed

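RNA of 6 mouse hearts was read on 1-colour Agilent arrays. For each array the authors deposited scanner output, made with Agilent Feature Extraction 10.7.1.1 per the submitters' notes, which holds a processed intensity for each spot after background subtraction. They also deposited log2 values of the same arrays, whose columns correlated at 0.9986 to 0.9988 with the log2 processed intensity and had medians of 4.33. Their normalization is not given in the sources used here.

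In R 4.3.3, the 75th percentile of an array was subtracted from its log2 processed intensities. Control and outlier spots were left out and spots of a probe averaged. Detection on an array (well above background) required that no less than 50% of the spots of a probe were flagged so, and a probe was tested when this held on every array of at least 1 group. The brightest tested probe stood for a gene. All 6 arrays entered limma 3.58.1 without covariates. The number of arrays limits the precision. The design speaks of 3 mice in each group. Samples with the same replicate number did not deviate together and were not paired.

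The members and gene lists were chosen with earlier results of these data known. Named are all members, list genes past the threshold with the 3 largest changes or counted among 5 or fewer, Myh7, Myh6 and Acta1, the 3 genes most like Nppa, Nppb and Npr3, and neighbours of Nppa and Nppb, of which 1 result is not reported here. Mme, Prkg1, Pde3a, Kcna5, Kcnj3, Dkk3, Myl4, Dcn, Cfd, Nkx2-5, Tnc, Myl7, Sln, Bmp10 and Lep were named after their values were seen. Gene names are those of the array design, and all 8 members matched the RefSeq table of GRCm38.p6. On simulated data for tail-suspension against sham over 28002 probes, 67% of probes changed by 1 on the log2 scale were called. For a change of 2 it was 94%, and 9 unchanged probes were called. The simulation changed 200 probes, whereas 20.2% of tested probes passed in the data, so the adjustment differs between them. The rates are averages over probes and do not apply to probes as variable as those of Nppa and Nppb. Alternatives covered background correction, scaling, filter, test, weights, blocks and each array left out.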

Additional observations from a re-analysis of the deposited data

How the results depend on the processing

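Corin kept its direction under all 18 alternatives and its call under 17, and Nppb and Npr2 kept their directions and passed under none. Nppa passed under normexp background correction (1.51) and array weights (1.68). Npr1 turned to -0.20 under normexp, -0.043 under quantile normalization and -0.036 under the authors' values. Npr3 and Furin kept estimates of 1.10 and 0.49 but did not pass without the filter (adjusted p = 0.0779 and 0.109), by the methods' t-test (0.0899 and 0.0826) or under the replicate block (0.0717 and 0.0855). The cause was not tested, except that the filter changes the number of probes tested. Blocked on slide row, Npr3 was at 1.52 (adjusted p = 0.0617), Corin at 0.71 Furin at 0.40 (adjusted p = 0.271) and Npr1 at 0.47 (adjusted p = 0.22). Over the 18 alternatives the adjusted p ran from 0.0126 to 0.0899 for Npr3, 0.000646 to 0.0669 for Corin and 0.0159 to 0.271 for Furin. Members called higher numbered 3, and 1 without the filter, by the methods' t-test and with the replicate block, and 0 with the row block.

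With 1 array left out, the log2 fold change lay between 1.10 and 2.03 for Nppa, 0.29 and 1.19 for Nppb, -0.18 and 0.19 for Npr1, -0.14 and -0.044 for Npr2, 0.90 and 1.25 for Npr3, 0.81 and 0.97 for Corin and 0.39 and 0.55 for Furin, and 1 to 4 members were called higher. Npr1 was at -0.06 without sham replicate 1 and at -0.18 without tail-suspension replicate 1.

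Over all probes, 2984 were higher and 2691 lower. The counts were 1038 and 805 without the filter, 1456 and 1203 by the methods' t-test, 1725 and 1432 with the replicate block, 324 and 177 with the row block, and 964 to 2922 and 737 to 2547 with 1 array left out (lowest without sham replicate 2). Array weights gave 4377 lower. Of the pathway genes, 9 were higher and 5 lower. These counts were 3 and 0 without the filter, 5 and 1 by the methods' t-test, 1 and 0 with the row block, and 3 to 11 and 1 to 3 with 1 array left out. Array weights gave 8 lower and the replicate block 2 lower. Same-numbered samples had deviations correlated at -0.02, -0.018 and 0.05, so they share only a number. Each member had 1 probe, so the mean over probes gave the same values. Npr1 and Nppc lay too near or under the detection limit for small differences to be measured.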

Other observations

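Nppb and Nppa lie next to each other on chromosome 4, and genes around them were read from the same fit in the order of the RefSeq table. On the side of Nppb, 2510039O18Rik, Plod1 and Mfn2 had log2 fold changes of -0.13, -0.28 and -0.07, Fv1 had -0.68 (adjusted p = 0.0615 by limma), and Miip, the fifth gene out, was higher by 0.97 (adjusted p = 0.00591 by limma). On the side of Nppa, Clcn6, a chloride transporter gene and its direct neighbour, was higher by 0.77 (adjusted p = 0.00561 by limma). A second probe of Clcn6 was higher by 0.66 (adjusted p = 0.0215 by limma). Agtrap, further out, had a difference of -0.016.

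Myh6, the adult myosin heavy chain, gave different values at its 2 probes. The brighter had a difference of -0.09 (adjusted p = 0.594 by limma) and the other fell by 1.48 (adjusted p = 0.00921 by limma), in the same hearts in which Myh7 rose.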
